A study of Mus musculus with 14 samples.

Results

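The genes described here encode the part of the extracellular matrix that is not collagen. The list held 40 genes in 5 classes, namely 13 basement membrane genes (laminin chains, nidogens and perlecan), 6 genes for fibronectin and matricellular proteins, 9 proteoglycan genes, 7 elastic fiber genes and 5 genes of the lysyl oxidase (LOX) family. They were chosen by name and function, with earlier results of these data known, and matched by gene symbol. All 40 were found, once each and under the same Ensembl identifier, among the 16481 genes listed for mouse pancreatic stellate cells (PSCs) and among the 54532 genes counted in mouse livers.

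PSCs from mouse pancreas were grown on Matrigel-coated plates in medium with 5% serum for 3 days and were given vehicle (DMSO) or 25 μM Yoda1, a chemical agonist of the mechanically gated calcium channel PIEZO1. RNA was taken 24 hours later by the study's methods (a supplementary legend gives 72 hours), and there were 3 libraries of each kind. The livers came from mice aged 8 to 12 weeks, taken 20 days after 100000 KPCY pancreatic cancer cells had been injected into the pancreas tail. There were 2 WT livers (Piezo1 fl/fl mice, called WT by the study), 3 TRPV4-KO livers (mice with a global Trpv4 deletion) and 3 livers of WT mice given GSK219 (GSK2193874, a TRPV4 antagonist) at 10 mg/kg by gavage every 24 hours. TRPV4 is a calcium channel of the cell surface that responds to mechanical and osmotic stimuli. All 8 livers came from mice carrying the tumor, the injected cells kept a working Trpv4 in every group, and it is not stated whether the WT mice were given the vehicle of GSK219.

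As background, laminins are trimers of an alpha, a beta and a gamma chain that form the sheet of the basement membrane, where nidogens and the heparan sulfate proteoglycan perlecan tie them to the collagen network. Small leucine-rich proteoglycans such as decorin, lumican and osteoglycin coat collagen fibrils and set their spacing. Elastic fibers consist of an elastin core on a scaffold of fibrillin microfibrils, to which fibulins and microfibril-associated proteins attach, and LOX enzymes crosslink both elastin and collagen. Activated stellate cells of pancreas and liver are known as major producers of this matrix, while hepatocytes secrete plasma fibronectin.

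Depth on genes was 15567031 to 17395299 counts per liver and 27312894 to 39070539 recovered reads per PSC library (deposited PSC values are normalized read counts, read counts divided by a size factor of each library). Of the fibroblast or stellate cell markers 10 of 11 were listed for PSCs, with a summed normalized read count of 904400 to 1014000 in DMSO and 429100 to 541900 in Yoda1, and 4 of these 10 fell with Yoda1 in limma (Col1a1, Col3a1, Acta2 and Tagln), of which Col1a1 and Acta2 missed the threshold with the preparation as a block (limma adjusted p = 0.0542 and 0.0518). Of the other 6, Pdgfra, Reln and Des had positive log2 fold changes (0.87, 1.56 and 0.07), and with the block Pdgfra rose (limma adjusted p = 0.0355). All 6 ductal markers were also present in the PSCs (29390 to 41750 in DMSO and 37750 to 66130 in Yoda1, with Spp1 the member that rose), as were all 4 mesothelial markers (7186 to 12910 in DMSO and 9272 to 12400 in Yoda1, with Msln at a log2 fold change of 0.96, limma adjusted p = 0.0285 and 0.0503 with the block). Lower sums were found for the 6 of 7 endothelial markers listed (1764 to 2139 in DMSO and 1248 to 1471 in Yoda1, without overlap, with Kdr lower and Lyve1 higher in limma with the block, adjusted p = 0.0373 and 0.0355), the 5 of 6 acinar markers (301.8 to 1498 in DMSO and 270.9 to 2297 in Yoda1), the 4 of 6 macrophage markers (619.8 to 763 in DMSO and 609.5 to 1115 in Yoda1) and the 1 of 6 hepatocyte markers, Ttr (62.8 to 121). Of the 6 endothelial markers 5 had positive log2 fold changes and 1, Kdr, a negative one. Kdr alone had 1565, 1891 and 1303 in DMSO and 861, 817 and 597 in Yoda1, so the fall of that sum lay in Kdr. The stellate cell marker Lrat was not listed. Trpv4 had 43 and 53 counts in WT, 15, 5 and 23 in TRPV4-KO and 20, 30 and 36 in GSK219 livers. The difference of WT and TRPV4-KO livers in Trpv4 was 1.71 on the log2 scale (SE 0.50) and did not pass the test (edgeR adjusted p = 0.161). Xist, expressed in females, had 13681 to 15754 counts in 1 liver of each group and at most 7 in the other 5, so each group held 1 female and otherwise male livers.

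Members differed widely in level, and the order was not the same in cultured PSCs and in liver. In RPKM (reads per kilobase of gene model, scaled to library size), DMSO PSCs had the highest levels of Sparc (1089 ± 58.7, SD, n = 3), Thbs1 (931 ± 149), Fn1 (776 ± 26.7), Lox (647 ± 89.5) and Fbln2 (460.2 ± 12.8). Sparc encodes a collagen-binding matricellular protein, Thbs1 the adhesive glycoprotein thrombospondin-1, and Fbln2 a fibulin of elastic fibers and basement membranes. The range of Thbs1 over the 3 libraries (772 to 1068) overlapped that of Sparc (1055 to 1157) and that of Fn1 (745 to 791), so these neighbors in the order did not differ beyond their spread, while Sparc and Fn1 did not overlap. The highest of the basement membrane genes was Hspg2, encoding perlecan, at 183 ± 6.71, and the highest proteoglycan was Bgn, encoding biglycan, at 329.8 ± 29.8. The low end was formed by Acan (0.0469 ± 0.0276), which encodes the cartilage proteoglycan aggrecan, and by Lamc3 (0.493 ± 0.0730), Eln (1.30 ± 0.703), Lama3 (1.35 ± 0.303) and Lum (1.51 ± 0.191). In the DMSO libraries the 40 members together took 3.76% to 4.15% of all reads, and in the Yoda1 libraries 3.13% to 3.56%, without overlap of the groups.

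In WT livers Fn1 stood alone at a mean of 316 RPKM, followed by Dcn (35.1), Bgn (23.9), Sparc (23.7), Prelp (20.1) and Lum (10.1). The highest basement membrane gene was Nid1 (5.14), with Hspg2 close to it (5.11), the highest elastic fiber gene was Mfap4 (0.947), and the highest LOX gene was Loxl4 (1.29), level with Loxl1 (1.29). Dcn, Prelp and Lum were thus among the highest members in liver and among the lower ones in PSCs, and Lox, Thbs1 and Fbln2 the reverse. Aspn, Acan and Mfap5 had fewer than 10 counts in every liver. Levels in PSCs and livers come from separate tables, so only the order within each was read. The share of liver counts on members was 0.320% to 0.513%, of which all but 0.0384% to 0.0971% fell on Fn1.

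**Figure D1:**
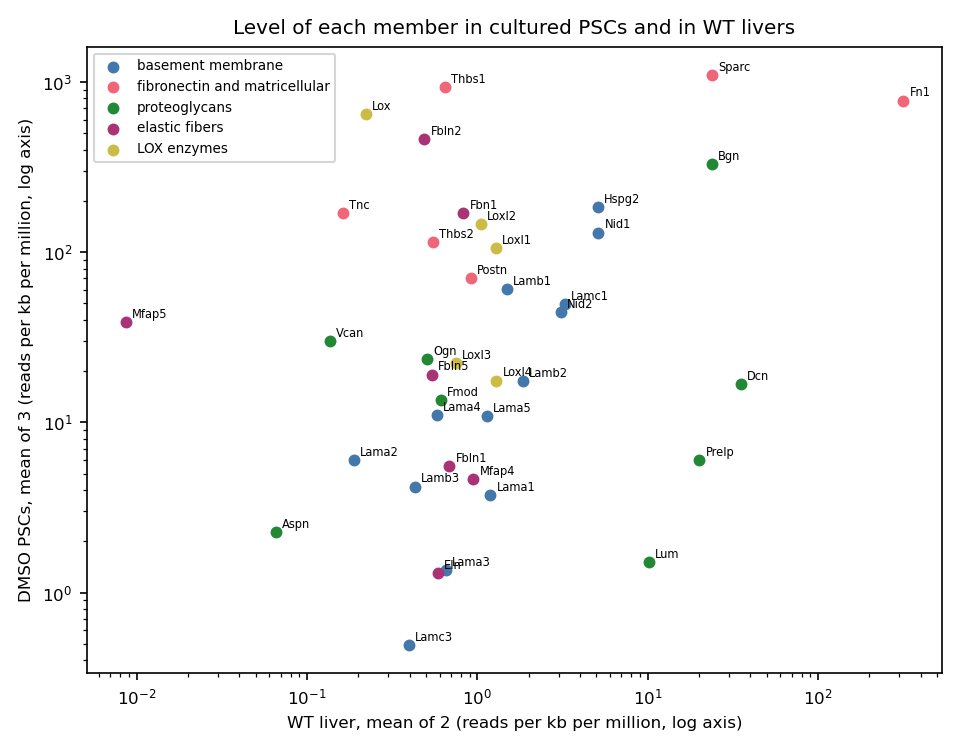
Level of 39 members in DMSO PSCs (vertical axis, mean of 3 libraries) against WT livers (horizontal axis, mean of 2), both in RPKM on log axes and colored by class. Fn1 and Sparc are high on both axes, Dcn, Prelp and Lum lie to the right, and Lox, Thbs1 and Tnc to the upper left. Acan, at 0 in every liver, is not drawn.

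The first comparison asked how PSCs changed when PIEZO1 was activated. Of the 39 members tested (Acan was below the minimum level), 2 fell with Yoda1 and none rose at an adjusted p under 0.05 in limma, where 1.15% of the 15145 genes tested fell and 1.2% rose. The 2 were Eln, encoding elastin, and Ogn, encoding the small proteoglycan osteoglycin. Of the 39 members, 35 had a negative log2 fold change, against 51.1% of all genes tested, and the median member stood at -0.38, against -0.0061 for all genes. At an unadjusted p under 0.05, 18 members fell and 2 rose (10.1% and 10.8% of all genes). Replicate numbers marked shared cell preparations, and with the preparation as a block in limma 6 members fell (Eln, Aspn, Postn, Mfap4, Lum and Dcn, where 1.89% of all genes fell) and none rose (2.11% of all genes). Ogn then missed the threshold (adjusted p = 0.0692).

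**Figure D2:**
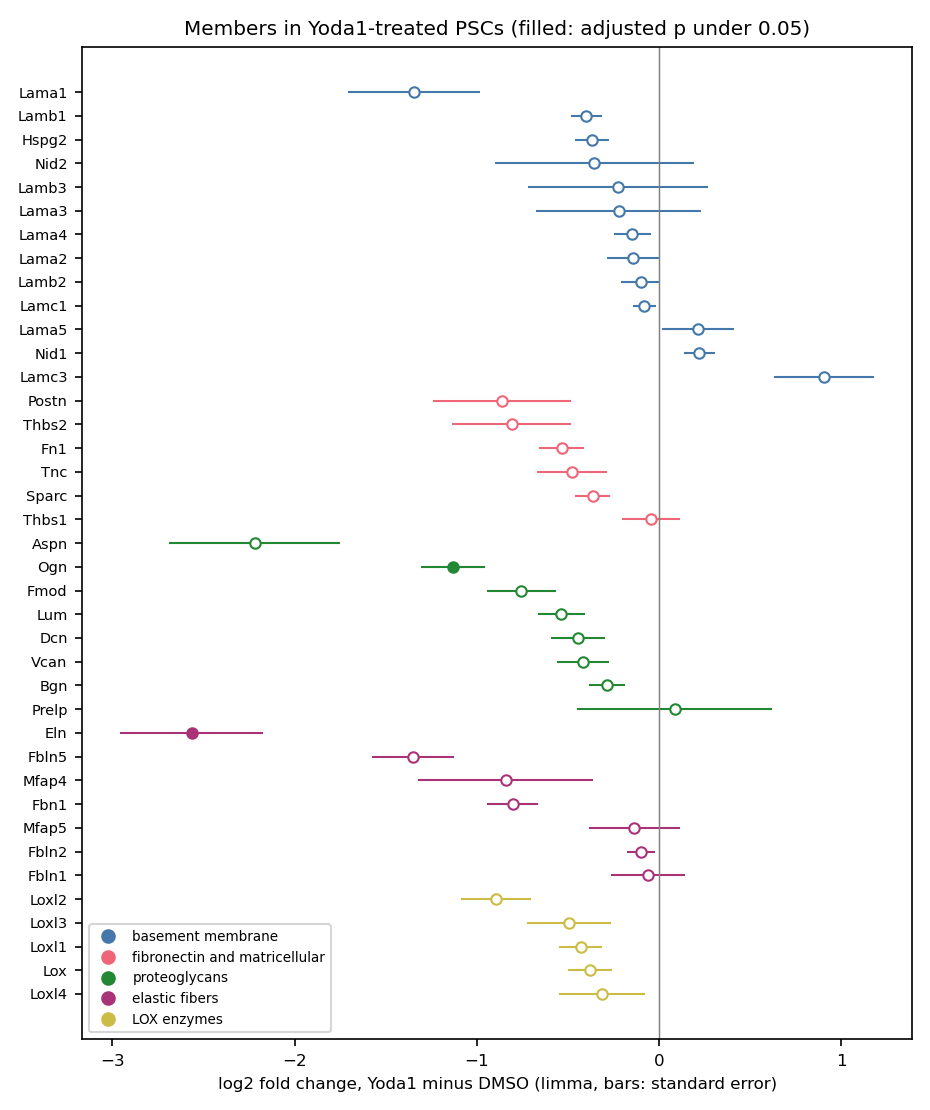
Log2 fold change of each of the 39 tested members in PSCs (horizontal axis, Yoda1 minus DMSO, limma without a block, bars show the standard error), grouped and colored by class. Filled points passed an adjusted p under 0.05. Eln (-2.56) and Ogn (-1.13) are filled, and 35 of 39 points lie left of 0.

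Most members lay on 1 side in every preparation. Between DMSO and Yoda1 libraries 19 of the 39 members had no overlap with Yoda1 lower (48.7%, against 15.1% of all genes tested), and 2 had none with Yoda1 higher (14.9% of all genes), these being Lamc3 and Nid1. Counted by preparation, 27 members were lower with Yoda1 in all 3 (29.4% of all genes) and 3 were higher in all 3 (27.2%). Replicate 3 stood apart. It was the highest DMSO library for 26 of the 39 members and the preparation with the largest fall for 28. The read test edgeR, run on the recovered reads with the preparation as a block, called 22 members lower (8.83% of all genes) and 2 higher (9.14%), and without the block 7 lower (2.31%) and none higher (2.24%). DESeq2 on the same reads called 16 lower (5.17%) and 1 higher (5.2%). Of the 10 fibroblast or stellate cell markers 7 had negative and 3 positive log2 fold changes in the same libraries, with the calls given above, and the part of cell composition in the members' values was not tested. In bulk RNA, fewer cells of a type and less RNA per cell cannot be told apart.

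Among the elastic fiber genes Eln showed the lowest Yoda1 values relative to DMSO of any member. Elastin is the rubber-like core of the fiber. Eln (ENSMUSG00000029675, chr5:134702593-134747323) had normalized read counts of 242, 250.1 and 599.6 in DMSO and 47.0, 51.0 and 69.8 in Yoda1. All Yoda1 libraries were far below all DMSO libraries, and DMSO replicate 3 was more than double the other DMSO libraries. For Eln, limma gave a log2 fold change of -2.56 (SE 0.39, adjusted p = 0.0415), and with the block the adjusted p was 0.0373. Without DMSO replicate 3 it was -2.14 (adjusted p = 0.0485), whereas leaving out any 1 of the other 5 libraries gave an adjusted p of 0.0691 to 0.162.

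Fbln5 and Fbn1 lay next to Eln in this class. Fibulin-5 tethers elastin to cell surface integrins, and fibrillin-1 is the backbone of the microfibril. Fbln5 (chr12:101746565-101819055) had 4846, 4369 and 4360 in DMSO and 2195, 2030 and 1249 in Yoda1, with no overlap of the groups. For Fbln5, limma gave a log2 fold change of -1.35 (SE 0.23, adjusted p = 0.0506), just over the threshold, and without Yoda1 replicate 3 it passed (-1.10, limma adjusted p = 0.0377). Fbn1 had 61764, 66445 and 85073 in DMSO and 43689, 38775 and 38839 in Yoda1, again without overlap. Fbn1 had a log2 fold change of -0.80 (SE 0.14, limma adjusted p = 0.0542). Mfap4, encoding a microfibril-associated glycoprotein, had 188, 264 and 472 in DMSO and 111, 130.0 and 279.8 in Yoda1. Here the groups overlapped, and preparations differed more than treatments, while each preparation was lower with Yoda1 by a similar step. For Mfap4, limma gave a log2 fold change of -0.84 (SE 0.48, adjusted p = 0.370), but with the block the adjusted p was 0.0410. Fbln1, Fbln2 and Mfap5, also fiber or microfibril genes, had log2 fold changes of -0.06, -0.10 and -0.13, each with overlapping groups.

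The proteoglycans were lower with Yoda1 in 7 of 8 tested members, each in all 3 preparations (29.4% of all genes) and without overlap of the groups (15.1% of all genes). Ogn (chr13:49608046-49624501) and Aspn (chr13:49544443-49567565) lie close together on chromosome 13. Between them lies Omd, another proteoglycan gene, which was not listed for PSCs. Asporin, the product of Aspn, is a small proteoglycan of fibrous tissue. Ogn had 1819, 2007 and 2397 in DMSO and 1172, 822 and 861 in Yoda1. Its DMSO libraries were all above its Yoda1 libraries, with Yoda1 replicate 1 the nearest to them. The log2 fold change of Ogn was -1.13 (SE 0.18, limma adjusted p = 0.0430). With any 1 of the 6 libraries left out the adjusted p of Ogn was 0.0643 to 0.162. Aspn had 92.3, 192 and 267 in DMSO and 22.6, 40.3 and 48.1 in Yoda1. Preparations differed in level under both treatments, and the step from DMSO to Yoda1 within each preparation was alike. The fold change of Aspn on the log2 scale was -2.22 (SE 0.47, limma adjusted p = 0.0780), and with the block the adjusted p was 0.0355.

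The upstream sequences of Ogn and Aspn, which lie close together, are shown because both genes were lower together. Those of Postn and Fbln5 are shown too, of which the first was called with the block and the second lay nearest the threshold. The sequence of Vcan is shown because this member had the smallest p in the livers. Each is the 250 bases upstream of a RefSeq start site (GRCm38.p6, 5′ to 3′ on the gene's strand), and none overlapped an annotated exon. Capitals mark 4 motifs found on either strand, namely TATAAA for the core promoter element of that name, the letters GGAATG for TEAD factors, the letters TGGGAA for RBPJ and the letters GGGCGG for Sp1-type factors, with overlapping copies run together.
Ogn, chr13:49607765-49608014, plus strand: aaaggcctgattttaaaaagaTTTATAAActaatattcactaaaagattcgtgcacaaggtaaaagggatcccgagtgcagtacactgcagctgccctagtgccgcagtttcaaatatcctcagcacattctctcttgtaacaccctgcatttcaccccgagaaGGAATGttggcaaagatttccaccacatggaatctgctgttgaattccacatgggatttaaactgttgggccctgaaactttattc
Aspn, chr13:49544193-49544442, plus strand: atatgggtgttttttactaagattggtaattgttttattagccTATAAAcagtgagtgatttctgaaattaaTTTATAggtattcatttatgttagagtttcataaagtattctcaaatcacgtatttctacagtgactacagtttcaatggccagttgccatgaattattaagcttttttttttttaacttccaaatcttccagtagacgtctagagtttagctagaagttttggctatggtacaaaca
Postn, chr3:54360857-54361106, plus strand: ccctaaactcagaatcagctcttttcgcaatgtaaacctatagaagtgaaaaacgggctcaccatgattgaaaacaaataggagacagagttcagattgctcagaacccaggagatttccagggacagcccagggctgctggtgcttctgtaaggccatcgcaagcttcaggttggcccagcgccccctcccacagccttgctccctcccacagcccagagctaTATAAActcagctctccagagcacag
Fbln5, chr12:101819120-101819369, minus strand: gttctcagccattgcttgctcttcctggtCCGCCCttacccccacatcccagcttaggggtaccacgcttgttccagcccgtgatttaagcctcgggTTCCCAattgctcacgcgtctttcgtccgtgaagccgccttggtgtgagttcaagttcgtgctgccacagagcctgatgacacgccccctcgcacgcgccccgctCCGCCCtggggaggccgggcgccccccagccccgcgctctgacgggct
Vcan, chr13:89742513-89742762, minus strand: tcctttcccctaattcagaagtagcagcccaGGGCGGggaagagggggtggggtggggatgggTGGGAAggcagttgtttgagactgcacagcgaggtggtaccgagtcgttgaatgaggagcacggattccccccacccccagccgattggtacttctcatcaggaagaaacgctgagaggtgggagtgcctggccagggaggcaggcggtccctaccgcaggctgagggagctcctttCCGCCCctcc

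In Postn the motif TATAAA lay 26 to 21 bases before the start, and in Ogn and Aspn the copies of TATAAA lay over 170 bases before it. Ogn held 1 copy of GGAATG. Neither TGANTCA, the letters for AP-1 factors, nor a CArG box was found in these 5 windows. Of the 40 members, 23 had a window. TATAAA was held by 5 of these 23 (12.4% of all 32851 windows of the same length), GGAATG by 3 (12.6%), TGGGAA by 12 (21.6%), GGGCGG by 12 (32.7%), TGANTCA by 0 (6.75%) and the CArG box by 1, Lama2 (1.47%). GC content was 30.0% for Aspn, 42.0% for Ogn, 52.0% for Postn, 62.4% for Vcan and 65.2% for Fbln5, with a median of 58.8% over the member windows and 52.4% over all windows. A letter match in these windows is a description and shows no binding.

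Dcn and Lum, encoding decorin and lumican and also close together (on chromosome 10), had small differences that repeated closely between preparations. Dcn had 3511, 3674 and 2849 in DMSO and 2541, 2745 and 2090 in Yoda1. Its log2 fold change was -0.44 (SE 0.15, limma adjusted p = 0.178), and with the block the adjusted p was 0.0470. Lum had 116, 117 and 148 in DMSO and 80.9, 83.9 and 96.2 in Yoda1, with low counts in every library. Lum had a log2 fold change of -0.53 (SE 0.13, limma adjusted p = 0.10), and with the block the adjusted p was 0.0452. Fmod, encoding fibromodulin, had 1161, 1555 and 1873 in DMSO and 807, 898 and 969 in Yoda1, and its groups did not overlap. The log2 fold change of Fmod was -0.76 (SE 0.19, limma adjusted p = 0.108). Vcan, encoding the large hyaluronan-binding proteoglycan versican, stood at -0.42 and Bgn at -0.29, neither past the threshold (limma adjusted p = 0.186 for both). Prelp, encoding a proteoglycan that binds basement membrane perlecan, was the exception, at 0.09, and its level followed the preparation (1284, 578 and 372 in DMSO and 1083, 653 and 467 in Yoda1). Nid2 and 3 of the 4 mesothelial markers (Upk3b, Lrrn4 and Wt1) were lowest in preparation 3 too under both treatments, the other, Msln, was so in DMSO only, and whether this bears on Prelp was not tested.

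**Figure D3:**
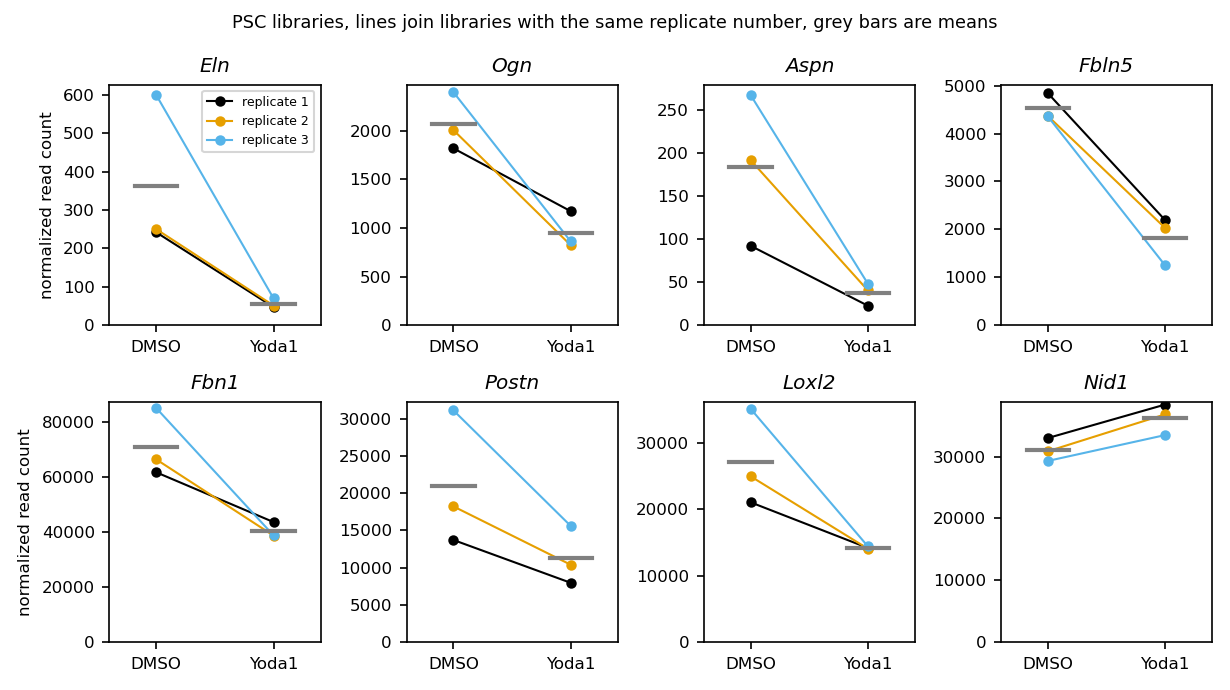
Normalized read count of 8 members (vertical axes from 0) in the 3 DMSO and 3 Yoda1 PSC libraries. Lines join libraries of the same preparation and grey bars mark group means. Every line falls for Eln, Ogn, Aspn, Fbln5, Fbn1, Postn and Loxl2 and rises for Nid1.

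All 6 genes of the fibronectin and matricellular class had negative log2 fold changes, from -0.86 for Postn to -0.05 for Thbs1. Periostin, the product of Postn, is a collagen-binding matricellular protein of activated fibroblasts. Postn (chr3:54361109-54391037) had 13724, 18224 and 31092 in DMSO and 7985, 10406 and 15602 in Yoda1. Yoda1 replicate 3 was above DMSO replicate 1, but within each preparation the Yoda1 library was at about the same fraction of its DMSO partner. For Postn, limma gave a log2 fold change of -0.86 (SE 0.38, adjusted p = 0.272), but with the block the adjusted p was 0.0373. Fn1, encoding fibronectin, had 314933, 313659 and 305285 in DMSO and 252561, 212537 and 184998 in Yoda1, lower with Yoda1 in every preparation. In limma Fn1 had a log2 fold change of -0.53 (SE 0.12, adjusted p = 0.0917). Thbs2, encoding thrombospondin-2, had 17084, 25801 and 39801 in DMSO and 12356, 15173 and 17441 in Yoda1, with an overlap of Yoda1 replicate 3 and DMSO replicate 1. The log2 fold change of Thbs2 was -0.81 (SE 0.33, limma adjusted p = 0.240). Tnc, encoding tenascin-C, was at -0.48 and Sparc at -0.36, both without overlap and neither past the threshold (limma adjusted p = 0.242 and 0.114).

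The LOX genes all had negative values too, and in limma no member of the class passed without or with the block. On the recovered reads edgeR called 1 of the 5 lower (Loxl2, with 2.31% of all genes), edgeR with the block all 5 (8.83%) and DESeq2 3 (5.17%). Loxl2, whose product crosslinks the collagen IV of basement membranes, had 21054, 24961 and 35112 in DMSO and 14196, 14076 and 14428 in Yoda1. Its Yoda1 libraries were nearly equal and lay below every DMSO library. Its log2 fold change was -0.89 (SE 0.19, limma adjusted p = 0.0795). Lox itself, encoding the founding enzyme of the family, had 97276, 97382 and 126535 in DMSO and 82790, 82400 and 80120 in Yoda1, without overlap. The log2 fold change of Lox was -0.38 (SE 0.12, limma adjusted p = 0.165). Loxl1, whose product acts on elastin, was at -0.43 without overlap, and Loxl3 and Loxl4 were at -0.49 and -0.31 with overlap.

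Basement membrane genes were the most mixed class, with a median of -0.15 and 3 of 13 members above 0. Lama1, the alpha chain of laminin-111 of early embryos, had 792, 938 and 2014 in DMSO and 464, 495 and 396 in Yoda1. DMSO replicate 3 was more than double the others, and no Yoda1 library reached a DMSO library. In limma Lama1 had a log2 fold change of -1.34 (SE 0.36, adjusted p = 0.125). Lamb1, encoding the beta-1 chain, had 19102, 19981 and 22662 in DMSO and 15169, 15963 and 15610 in Yoda1, and its groups did not overlap. The log2 fold change of Lamb1 was -0.40 (SE 0.08, limma adjusted p = 0.0780). Lamc1, encoding the gamma-1 chain found in most laminins, was at -0.08 (SE 0.06), with DMSO values of 13701 to 14198 and Yoda1 values of 12677 to 13838. Hspg2 had 92855, 87627 and 89230 in DMSO and 76260, 71653 and 62183 in Yoda1, without overlap. Its log2 fold change was -0.37 (SE 0.09, limma adjusted p = 0.113). Nid1 and Lamc3 stood on the other side. Nid1, encoding nidogen-1, had 32976, 30836 and 29283 in DMSO and 38381, 36799 and 33456 in Yoda1. The log2 fold change of Nid1 was 0.22 (SE 0.08, limma adjusted p = 0.221), and the edgeR fit with the block called it higher (0.23, adjusted p = 0.0259). Lamc3, encoding the gamma-3 chain, had 86.0, 116 and 108 in DMSO and 151, 165 and 289 in Yoda1, low but higher in every Yoda1 library. In limma Lamc3 had a log2 fold change of 0.91 (SE 0.27, adjusted p = 0.149), and in the edgeR fit with the block it was 0.94 (adjusted p = 0.0243).

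Lama3 and Lamb3, which encode chains of the epithelial laminin-332, followed the preparation more than the treatment. Lama3 had 429, 432 and 642 in DMSO and 271, 334 and 829.9 in Yoda1, and Lamb3 had 713, 858 and 1299 in DMSO and 470.3, 667 and 1587 in Yoda1. Both were lower with Yoda1 in preparations 1 and 2 and higher in preparation 3, which also had the highest values of the epithelial markers Krt19, Krt7 and Cdh1 in each treatment. The part of epithelial cells in these values was not tested. Lama2, Lama4, Lama5 and Lamb2 lay between -0.15 and 0.21.

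Of 83 other noncollagen matrix genes, 73 were listed for PSCs and 67 tested, of which 8 fell and 1 rose in limma (1.15% and 1.2% of all genes). Their median log2 fold change was -0.07, and 37 of 67 were negative (51.1% of all genes). With the block 7 fell and 3 rose (1.89% and 2.11%). Frem2, Ltbp2 and Tnxb then missed the threshold (limma adjusted p = 0.0503, 0.0518 and 0.0716), while Efemp1 passed as lower and Fgl2, Esm1 and Prg4 as higher. Prg4 was low, with 4.99, 5.61 and 12.1 in DMSO and 14.8 to 23.3 in Yoda1. It reached the minimum level (10 or more in at least 3 libraries) only through the Yoda1 libraries, so the filter favored its direction. The 3 with the largest falls were Frem2 (-1.54), which belongs to a complex that anchors epithelial basement membranes, Matn3 (-1.49), a matrilin, and Podn (-1.41), a small proteoglycan, with adjusted p of 0.0275, 0.0196 and 0.0215. Tnxb, encoding tenascin-X, rose by 1.69 without the block (limma adjusted p = 0.0459), from 69.8, 59.5 and 35.3 in DMSO to 155, 164 and 200.5 in Yoda1. The other genes that fell without the block were Fras1, Ltbp2, Tgm2, P4ha3 and Pxdn. Of the crosslinking and matrix-modifying enzymes other than LOX genes, 3 of 10 thus fell (1.15% of all genes), and 9 of the 10 were negative.

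The liver comparisons asked how far loss or block of TRPV4 changed the liver of tumor-bearing mice. No member passed an adjusted p under 0.05 in edgeR in any of the 3 comparisons. Between WT and TRPV4-KO livers 0.165% of the 15118 genes tested were higher in WT and 0.126% lower, and no gene was called in either direction between WT and GSK219 livers (0%). Of the 36 members tested (Aspn, Acan, Mfap5 and Lox were below the minimum count), 30 had a positive difference of WT minus TRPV4-KO, against 48.8% of all genes, with a median of 0.58 on the log2 scale against -0.011. At an unadjusted p under 0.05, 11 members were higher in WT and 0 lower (9.5% and 7.61% of all genes). For WT minus GSK219 34 of 36 were positive (49.7% of all genes), with a median of 0.53 against -0.0015, and 12 were higher in WT and 0 lower at an unadjusted p under 0.05 (5.87% and 2.34% of all genes). Both comparisons used the same 2 WT livers, so their values are not independent of each other. DESeq2 called 4 members as higher in WT against TRPV4-KO livers (Lamb1, Fbn1, Loxl2 and Vcan, where 3.06% of all genes were called higher and 2.13% lower) and 1 higher than in GSK219 livers (Vcan, 0.562%). Vcan reached the count minimum only through the WT livers, so that its direction was fixed by the filter, and without it these counts are 3 and 0. Without Vcan, 29 and 33 of the other 35 members were positive, and 10 and 11 were higher in WT at an unadjusted p under 0.05.

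Both WT livers were above every TRPV4-KO liver for 16 of the 36 members (17.7% of all genes) and above every GSK219 liver for 18 (15.6%), in CPM (counts scaled to library size). For 13 of the 36 members both held, against 10% of all genes tested. Without Vcan these counts are 15, 17 and 12 of 35. TRPV4-KO replicate 3 was the highest of its group for 24 of 36 members, and without it 10 members passed as higher in WT (Dcn, Hspg2, Nid1, Nid2, Lamb1, Thbs1, Loxl2, Fbln1, Thbs2 and Vcan), where 5.02% of all genes were called higher and 3.62% lower. This liver, WT replicate 1 and GSK219 replicate 3 were the female livers. Within the females the median member was 0.41 higher in WT replicate 1 than in TRPV4-KO replicate 3, and within the males 0.58 higher in WT replicate 2 than in the mean of TRPV4-KO replicates 1 and 2, with 29 of 36 members positive in each. With sex as a term 3 members passed (Bgn, Lamb1 and Vcan, where 2.3% of all genes were called higher). Leaving out Vcan, whose direction the filter fixed, these counts are 9 without TRPV4-KO replicate 3 and 2 with sex as a term.

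Markers of other cell types differed between these groups. The hepatocyte marker Alb had 31640 and 44380 CPM in WT livers, 54090 to 74030 in TRPV4-KO and 51440 to 61770 in GSK219 livers. The other 5 hepatocyte markers summed to 17700 and 18250, 16370 to 22960 and 17190 to 21380, and these ranges overlapped. The 11 fibroblast or stellate cell markers summed to 255.7 and 408 CPM in WT, 95.6 to 192 in TRPV4-KO and 128 to 179.7 in GSK219 livers, with 6 of 11 higher in each WT liver than in every TRPV4-KO liver. For the 6 macrophage markers the sums were 1283 and 1386, 343 to 767 and 369 to 860.5, and for the 7 neutrophil markers 43.7 and 51.1, 1.20 to 5.73 and 2.45 to 4.42. The 7 markers of endothelial cells, which also make laminins and nidogens, summed to 383 and 420.5 CPM in WT, 230.2 to 363 in TRPV4-KO and 277 to 379 in GSK219 livers, and the 6 ductal markers to 130.8 and 131 CPM, 81.6 to 111 and 99.95 to 128. Neither sum overlapped between WT and the other groups, but most of the single markers did. Both WT livers were above every TRPV4-KO liver for 3 of the 7 endothelial and 1 of the 6 ductal markers. Against GSK219 livers this held for 1 of the 7 and 3 of the 6. The part of cell composition in the members' liver values was not tested.

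Vcan had the smallest p of any member in both comparisons with WT. It had 27 and 39 counts in WT, 9, 5 and 8 in TRPV4-KO and 4, 9 and 6 in GSK219 livers. WT livers were above both other groups, whose ranges overlapped, but counts were low everywhere and Vcan reached the count minimum through the WT livers alone, so it was bound to be higher there. The WT minus TRPV4-KO difference was 2.10 on the log2 scale (SE 0.44, edgeR adjusted p = 0.102), and the WT minus GSK219 difference was 2.33 on the log2 scale (SE 0.45, edgeR adjusted p = 0.391). The other large proteoglycan, Acan, had 0 counts in all 8 livers.

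Among the small proteoglycans, Lum and Bgn were among the 8 members with the smallest p for WT against TRPV4-KO livers. Bgn, on the X chromosome, had 2777 and 2048 counts in WT, 1190, 896 and 1846 in TRPV4-KO and 1104, 1407 and 1926 in GSK219 livers. For Bgn the WT minus TRPV4-KO difference was 0.86 on the log2 scale (SE 0.30, edgeR adjusted p = 0.205). Lum had 494 and 326 counts in WT, 216, 85 and 242 in TRPV4-KO and 117, 168 and 223 in GSK219 livers. For Lum the WT minus TRPV4-KO difference was 1.16 on the log2 scale (SE 0.41, edgeR adjusted p = 0.220), and the WT minus GSK219 difference was 1.27 on the log2 scale (SE 0.41, edgeR adjusted p = 0.539). Both genes were above the other groups in both WT livers. Dcn, the second highest member of the liver per length, had 3618 and 3200 counts in WT, 1546, 1000 and 2915 in TRPV4-KO and 1582, 2243 and 3087 in GSK219 livers. Its WT livers were the highest, with the female livers of the other groups close below. The WT minus TRPV4-KO difference was 0.89 on the log2 scale (SE 0.39, edgeR adjusted p = 0.297). Prelp had 1310 and 1105 counts in WT, 503, 420 and 1062 in TRPV4-KO and 539, 822 and 1178 in GSK219 livers, with GSK219 replicate 3 above WT replicate 2. Ogn, which fell with Yoda1 in PSCs, had 8 to 30 counts per liver and a difference of 0.21 (SE 0.53) between WT and TRPV4-KO livers.

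Loxl2 and Loxl1 represented the LOX genes. Loxl2 had 113 and 74 counts in WT, 30, 20 and 47 in TRPV4-KO and 35, 63 and 42 in GSK219 livers, with both WT livers highest. For Loxl2 the WT minus TRPV4-KO difference was 1.51 on the log2 scale (SE 0.39, edgeR adjusted p = 0.141). Loxl1 had 93 and 47 counts in WT, 41, 23 and 27 in TRPV4-KO and 24, 41 and 25 in GSK219 livers. For Loxl1 the WT minus GSK219 difference was 1.21 on the log2 scale (SE 0.42, edgeR adjusted p = 0.539), and without WT replicate 1 it was 0.58. Loxl4 spread widely among TRPV4-KO livers, with 100 and 81 counts in WT, 15, 7 and 76 in TRPV4-KO and 32, 64 and 147 in GSK219 livers. TRPV4-KO replicate 3 was near WT and replicates 1 and 2 were far below, and the highest liver was GSK219 replicate 3. Lox had 27 and 8 counts in WT and 2 to 9 in the other livers and was not tested.

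Fbn1 and Fbln1 were the elastic fiber genes with the smallest p. Fbn1 had 198 and 134 counts in WT, 78, 36 and 83 in TRPV4-KO and 64, 73 and 101 in GSK219 livers, with both WT livers highest. The WT minus TRPV4-KO difference was 1.31 on the log2 scale (SE 0.36, edgeR adjusted p = 0.153), and the WT minus GSK219 difference was 1.05 on the log2 scale (SE 0.36, edgeR adjusted p = 0.539). Fbln1, encoding fibulin-1, had 58 and 41 counts in WT, 13, 12 and 36 in TRPV4-KO and 11, 6 and 15 in GSK219 livers. For Fbln1 the WT minus GSK219 difference was 2.19 on the log2 scale (SE 0.54, edgeR adjusted p = 0.429). In this gene TRPV4-KO replicate 3 came close to the WT livers and no GSK219 liver did. Eln, which fell with Yoda1 in PSCs, had 99 and 57 counts in WT, 70, 25 and 59 in TRPV4-KO and 54, 42 and 69 in GSK219 livers, with overlapping groups.

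**Figure D4:**
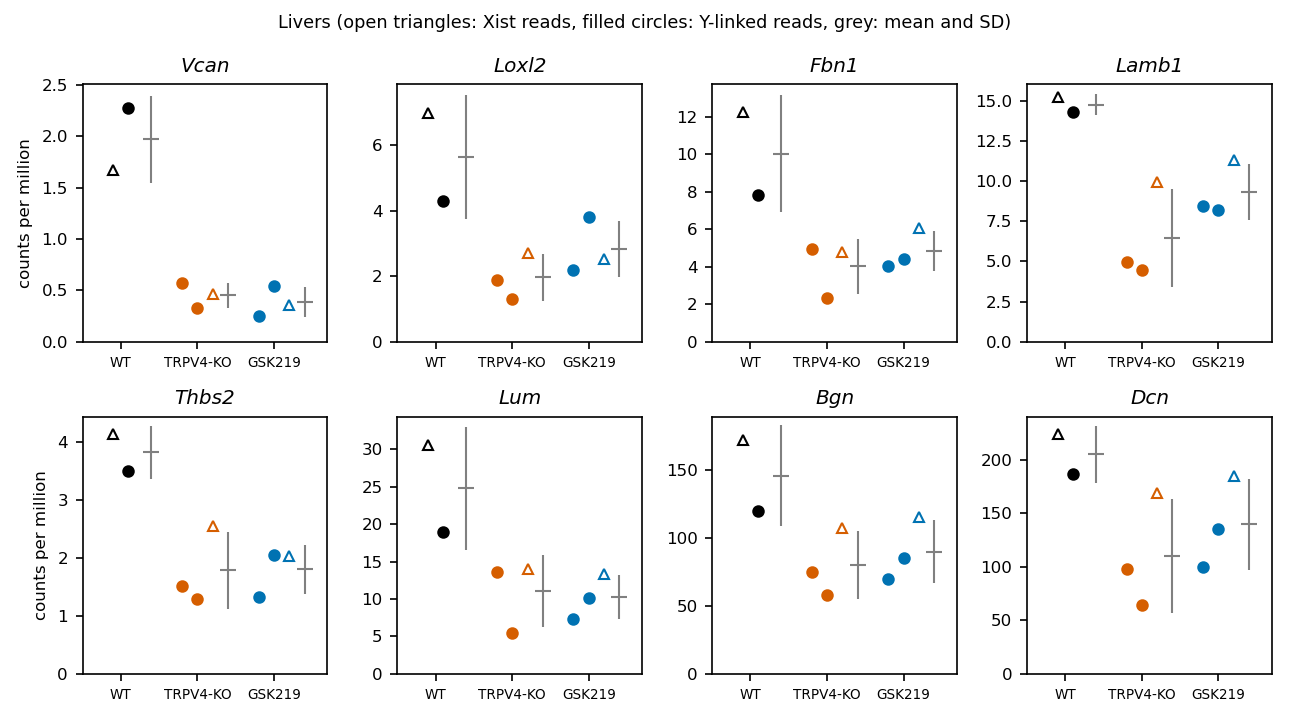
CPM of 8 members (vertical axes from 0) in the WT, TRPV4-KO and GSK219 livers. Open triangles are livers with Xist reads, filled circles livers with Y-linked reads, and grey marks show mean and SD. Both WT livers lie above every other liver for all 8 genes. These 8 were picked from the 36 members tested, of which 13 do so (12 of 35 without Vcan, and 10% of all genes). The direction of Vcan was fixed by the count filter. The triangle of the TRPV4-KO group is its highest point for Loxl2, Lamb1, Thbs2, Lum, Bgn and Dcn.

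Lamb1 and Nid2 had the smallest p of the basement membrane genes for WT against TRPV4-KO livers, and Lama2 and Lamc1 for WT against GSK219 livers. Lamb1 had 246 and 245 counts in WT, 78, 69 and 172 in TRPV4-KO and 134, 136 and 189 in GSK219 livers, with WT livers highest and the first 2 TRPV4-KO livers lowest. The WT minus TRPV4-KO difference was 1.19 on the log2 scale (SE 0.33, edgeR adjusted p = 0.156). Nid2, encoding nidogen-2, had 277 and 256 counts in WT, 154, 144 and 222 in TRPV4-KO and 198, 202 and 265 in GSK219 livers. The WT minus TRPV4-KO difference was 0.59 on the log2 scale (SE 0.20, edgeR adjusted p = 0.199). Nid1 had 718 and 462 counts in WT, 261, 179 and 510 in TRPV4-KO and 253, 339 and 400 in GSK219 livers, with TRPV4-KO replicate 3 above WT replicate 2 in CPM. Lama2, the alpha chain of muscle and nerve laminins, had 58 and 44 counts in WT, 31, 12 and 31 in TRPV4-KO and 19, 27 and 17 in GSK219 livers. For Lama2 the WT minus GSK219 difference was 1.26 on the log2 scale (SE 0.43, edgeR adjusted p = 0.539). Lamc1 varied little (324 to 454 counts), and Lama4, Lama5, Lamb2, Lamb3 and Lamc3 had differences of -0.40 to 0.41 between WT and TRPV4-KO livers.

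Thbs2 and Sparc were the matricellular genes concerned, and Fn1 differed little. Thbs2 had 67 and 60 counts in WT, 24, 20 and 44 in TRPV4-KO and 21, 34 and 34 in GSK219 livers. For Thbs2 the WT minus TRPV4-KO difference was 1.09 on the log2 scale (SE 0.36, edgeR adjusted p = 0.198), and the WT minus GSK219 difference was 1.08 on the log2 scale (SE 0.36, edgeR adjusted p = 0.539). WT livers were highest without overlap. Sparc had 1669 and 1310 counts in WT, 1339, 1005 and 1894 in TRPV4-KO and 667, 1041 and 1070 in GSK219 livers. Here WT and TRPV4-KO livers overlapped. In CPM all 3 GSK219 livers were below them, but narrowly, with 64.0 in GSK219 replicate 3 against 65.1 in TRPV4-KO replicate 2. The WT minus GSK219 difference was 0.67 on the log2 scale (SE 0.26, edgeR adjusted p = 0.571). Fn1 had 45009 to 69109 counts in all livers, with differences of 0.09 (SE 0.18) for WT minus TRPV4-KO and 0.10 (SE 0.18) for WT minus GSK219.

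TRPV4-KO and GSK219 livers were compared directly, and no member passed in edgeR (0.0595% of all genes were higher in TRPV4-KO and 0.0463% lower). At an unadjusted p under 0.05, 1 member was higher and 0 lower (3.48% and 2.64% of all genes). The median difference of the 36 members was 0.03 on the log2 scale, and 20 were positive. Sparc had the smallest p, with a difference of 0.62 (SE 0.23, edgeR adjusted p = 0.749). Its groups did not overlap in CPM, though narrowly (65.1 in TRPV4-KO replicate 2 against 64.0 in GSK219 replicate 3). In all, 2 members were higher in every TRPV4-KO liver than in every GSK219 liver and 0 lower (5.85% and 4.35% of all genes). Fmod had 35 and 32 counts in WT, 52, 40 and 43 in TRPV4-KO and 39, 27 and 13 in GSK219 livers, and the TRPV4-KO minus GSK219 difference was 0.78 on the log2 scale (SE 0.39, edgeR adjusted p = 0.877). The remaining members of the 8 with the smallest p were Nid2 (-0.34), Mfap4 (0.89), Fbln1 (0.92), Lamb1 (-0.53), Loxl4 (-1.32) and Lama4 (0.43), with adjusted p of 0.884 to 0.923. Without TRPV4-KO replicate 3 the value was 0.29 for Fbln1, -0.99 for Lamb1 and -2.79 for Loxl4, and without GSK219 replicate 3 it was -0.59 for Loxl4.

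Of 83 other noncollagen matrix genes, 59 were tested in livers, and 1 was called (0.165% of all genes were called higher in WT than in TRPV4-KO). Spon2, encoding a secreted adhesive protein, differed between WT and TRPV4-KO livers by 2.14, with WT higher, on the log2 scale (edgeR adjusted p = 0.0390), with 200 and 246 counts in WT, 31, 43 and 74 in TRPV4-KO and 129, 192 and 156 in GSK219 livers. The median of these 59 genes was 0.31 for WT minus TRPV4-KO, with 43 positive (48.8% of all genes), and 0.29 for WT minus GSK219, with 44 positive (49.7%).

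Lama3 varied more between the sexes than between the groups. It had 18 and 221 counts in WT, 323, 373 and 21 in TRPV4-KO and 171, 135 and 17 in GSK219 livers. The 3 female livers held 17 to 21 counts and the 5 male livers 135 to 373, with no overlap. Adjusted for group, the female minus male difference of Lama3 was -3.68 on the log2 scale (SE 0.24, edgeR adjusted p = 8.08e-05). This was examined after the values had been seen. Of the members 1 passed as lower in females (1.48% of all genes) and 2 as higher (1.99%), Bgn by 0.60 (adjusted p = 0.0281) and Prelp by 0.75 (edgeR adjusted p = 0.0452). The difference of WT and TRPV4-KO livers in Lama3 was -1.12 (SE 1.5) without sex in the fit and -0.65 (SE 0.26, edgeR adjusted p = 0.186) with it. Without WT replicate 1 it was -0.24 and without WT replicate 2 it was -3.76.

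**Figure D5:**
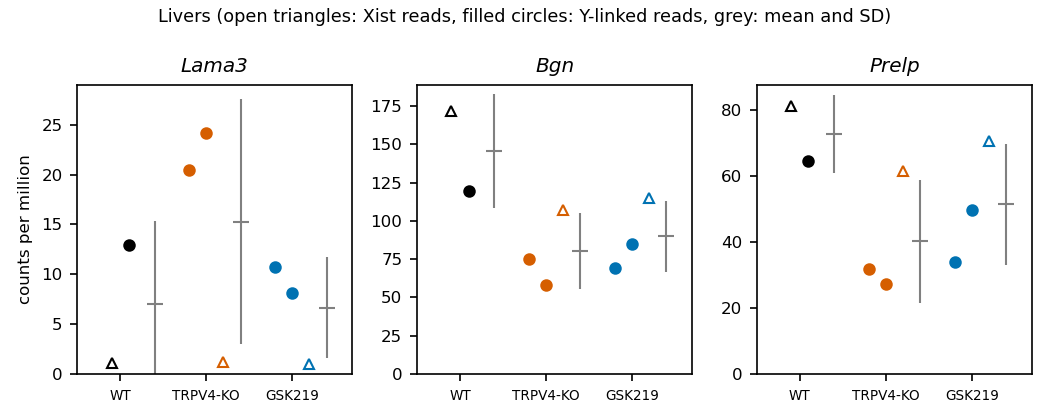
CPM of Lama3, Bgn and Prelp (vertical axes from 0) in the 8 livers by group, with open triangles for livers with Xist reads, filled circles for livers with Y-linked reads and grey marks for mean and SD. The 3 triangles of Lama3 lie near the axis, at 1.02 to 1.22, and the circles at 8.15 to 24.2, whereas for Bgn and Prelp each group's triangle is its highest point.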

How the data were processed

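RNA-Seq of 8 mouse livers and 6 mouse PSC libraries was analysed. For the livers the authors deposited raw counts of reads per gene. The PSC table holds a signal, deposited as gene counts over a size factor per library, and all values were whole multiples of 1 step (tolerance 0.01 reads), so read counts were recovered. The submitters' processing notes name HISAT2 2.0.5 and Trim Galore. The counting tool and strand setting are not given in the sources used here, so antisense or overlapping genes cannot be told apart. The authors' own fold changes and p-values in the PSC table (log2 values, scores and p-values, deposited beside the signal) were not used, nor were 7 liver columns that match no described sample. Labels and text differ on the origin of the PSCs (mouse in the labels, human in part of the methods), and the genes listed are mouse genes.

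PSC values were tested with limma 3.58.1 on log2(value + 1), so fold changes of low genes are understated, for genes at 10 or more in at least 3 libraries. Liver counts were tested with edgeR 4.0.16 (R 4.3.3, quasi-likelihood, TMM, minimum count 10), all 8 livers in 1 fit. Both were adjusted by Benjamini-Hochberg over all genes tested and called at 0.05. Both were also run on simulated counts with a fixed spread and no preparation or sex effect, which does not show how they perform on these data. Liver CPM use TMM library sizes. Levels per kilobase use the gene lengths of the liver table for both tables. Log2 values within 1 sex add 0.1 CPM. DESeq2 1.42.0, the block and other settings are given at the end. PSC libraries that share a replicate number share a culture code in the labels, and their deviations from the group means correlated (0.431, 0.262 and 0.527 across genes, against -0.478 to 0.132 for other numbers), so they were taken as pairs. Liver numbers did not pair. The study counts its WT and TRPV4-KO liver samples as animals, and the GSK219 livers are numbered as biological replicates in the labels. Members with full values were those that passed, the 8 with the smallest p in each liver comparison and the highest of each class. Others named were chosen after their values were seen. Members and lists were chosen with earlier results of these data known. Promoter windows are from RefSeq (GRCm38.p6), checked against GENCODE exons. Gene coordinates are those of the liver table, whose build is not given in the sources used here and whose starts lay within 64 bases of the windows printed.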

Additional observations from a re-analysis of the deposited data

How the results depend on the processing

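The counts of members called depended on the processing. In PSCs the count called lower was 2 in limma and became 6 with the replicate block, which follows the pairing, 4 with a pseudocount of 10, 0 without the filter on low values, 7 with edgeR on recovered reads, 22 with edgeR and the replicate block, 16 with DESeq2, and 0 to 1 with any 1 library left out. The 1 was Eln without DMSO replicate 3 or Fbln5 without Yoda1 replicate 3, and the count was 0 without each of the other 4 libraries. The count called higher in PSCs was 0, with 1 for DESeq2 and 2 for edgeR with the replicate block. A pseudocount of 0.1, and separately a log2 fold change over 1, each gave 2 lower and 0 higher, as did the block with a log2 fold change over 1, a rule added after seeing the data.

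In the livers the count higher in WT than in TRPV4-KO was 0 and became 4 with DESeq2, 6 with the replicate block (2.61% of all genes, Dcn, Bgn, Prelp, Lamb1, Fbn1 and Loxl4) although liver numbers did not pair (correlations of -0.536 to 0.612), 3 with sex as a term, and 0 to 10 with any 1 liver left out, the 10 being without TRPV4-KO replicate 3. For WT against GSK219 DESeq2 gave 1. In all other liver settings the counts were 0. No other call of a member changed with the block.

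Some directions turned. Prelp in PSCs was -0.020 with DESeq2 and -0.0082 with edgeR, and Sparc for WT minus TRPV4-KO was -0.010 with sex as a term. Ogn for WT minus TRPV4-KO was -0.066 with the replicate block. For WT minus GSK219, Lama3 was -0.90 and Lamb2 0.13 with the replicate block, and Lamc3 was -0.21 with sex as a term and -0.020 without the filter. For TRPV4-KO minus GSK219, Loxl1 was -0.011 with the replicate block and Fn1 -0.0043 with only the groups compared. With 1 library left out, PSC values ranged from -0.24 to 0.0080 for Lama2, -0.16 to 5.4e-05 for Lamb2, -0.86 to 0.015 for Nid2, -0.27 to 0.13 for Mfap5, -0.71 to 0.10 for Lama3, -0.72 to 0.15 for Lamb3, -0.18 to 0.16 for Fbln1, -0.18 to 0.054 for Thbs1 and -0.32 to 0.58 for Prelp. Some PSC values that kept their direction moved too, with -1.13 to -0.54 for Postn, -1.25 to -0.48 for Mfap4, -1.11 to -0.50 for Thbs2 and -0.59 to -0.27 for Tnc. With 1 liver left out, the direction turned for 8 of 36 members in WT minus TRPV4-KO, 11 of 36 in WT minus GSK219 and 17 of 36 in TRPV4-KO minus GSK219. Including these, the value moved by over 1.5 times for 22, 28 and 35 of 36. For the members whose direction turned, the values with all livers were at most 0.34, 0.49 and 0.35 in size. For WT minus TRPV4-KO the ranges were -0.026 to 0.22 for Fn1, -0.16 to 0.27 for Sparc, -1.10 to 0.45 for Lamc3, -0.61 to 0.18 for Lama4, -0.47 to 0.61 for Mfap4, -0.034 to 0.33 for Lamb2, -0.000375 to 0.71 for Postn and -0.14 to 0.050 for Fbln5. For WT minus GSK219 the range was -0.021 to 0.86 for Eln and -2.58 to 0.94 for Lama3. The smallest liver difference that this design could detect was not tested. The cause of these changes was not tested.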
